A study of Homo sapiens with 12 samples.

Results

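The collapsin response mediator family was examined in HepG2, an established human liver cancer cell line. Its members were chosen by symbol, as CRMP1, DPYSL2, DPYSL3, DPYSL4, DPYSL5 and DPYS, and by presence in the count table of 16389 genes. Of these 6 genes, 5 were listed, and DPYS was not analysed here. The family was also proposed with the results of HGV against HG in view, so that contrast is described below without a test. The listed members averaged from 17.58 reads (DPYSL3) to 8025.17 reads (DPYSL2) per library over the 12 libraries, in a table whose lowest gene average was 10 reads, and DPYSL3 was therefore the member nearest to that limit. DPYSL3 and DPYSL5 averaged 6 and 3.83 reads in the untreated libraries, against 29.17 and 545.33 with valproic acid. Their place in the table thus rested on the treated groups, in which they had to be higher.

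All 4 groups were HepG2 (ATCC, passage 9) and differed in glucose and drug. Glucose was 5.5 mM in LG and 20 mM in HG for 48 h, with no drug. In LGV and HGV, 12 h with 1 mM valproic acid (VPA), an antiepileptic drug that inhibits histone deacetylases, followed in the same media. Each group had 3 libraries, and nothing in the labels said that replicates came from separate cultures, so the p-values measure the spread between these libraries, which may be technical. The time at which untreated cells were collected, relative to those 12 h, was not stated. Poly(A) RNA was sequenced, and between 29798442 and 45572694 reads per library were counted on genes (median 32536917.5). Counts per library size are given as CPM. Values of 3 reads or fewer were treated as not separable from 0, which set a floor of 0.0713 to 0.112 CPM depending on the library and covers counting error only.

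Collapsin response mediator proteins are cytosolic phosphoproteins of growing axons. They relay the signal of class 3 semaphorins (formerly collapsins) from neuropilin and plexin receptors to microtubules and actin, and phosphorylation by kinases such as CDK5, GSK3B and FYN controls their grip on tubulin. In sequence they resemble dihydropyrimidinase, the DPYS product, a liver and kidney enzyme of pyrimidine breakdown, although they lack its activity. In the adult body their main site is the nervous system, and DPYSL2 is the member most widely found outside it.

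The genes lie on different chromosomes, apart from DPYSL2 and DPYS. On GRCh37, in GENCODE annotation, CRMP1 (ENSG00000072832) spans chr4:5749811-5894813 on the minus strand, and DPYSL3 (ENSG00000113657) chr5:146770371-146889631 on the minus strand. DPYSL4 (ENSG00000151640) spans chr10:134000452-134019263 and DPYSL5 (ENSG00000157851) chr2:27070615-27173219, both on the plus strand. Merged exons covered 5869, 7179, 3111 and 7048 bases for these 4 genes in the order given. The counts are per gene, so reads in any annotated exon contribute. Exons of CRMP1 share 159 bases with EVC, those of DPYSL2 62 bases with PNMA2, and those of DPYSL5 44 bases with a long noncoding RNA, each time on the opposite strand.

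The 250 bases before a RefSeq transcription start are shown for DPYSL5, DPYSL4 and DPYSL3, the members with the largest fitted changes under VPA, and for CRMP1, which did not pass the test under VPA in low glucose. These stretches hold no annotated exon of their gene, each was matched to a single place in GRCh37, and capitals mark GC boxes (GGGCGG, or CCGCCC where it is read on the other strand). They run 5′ to 3′ on the strand of the gene, at chr2:27070750-27070999 (plus), chr10:134000202-134000451 (plus), chr5:146889632-146889881 (minus) and chr4:5894814-5895063 (minus).
DPYSL5: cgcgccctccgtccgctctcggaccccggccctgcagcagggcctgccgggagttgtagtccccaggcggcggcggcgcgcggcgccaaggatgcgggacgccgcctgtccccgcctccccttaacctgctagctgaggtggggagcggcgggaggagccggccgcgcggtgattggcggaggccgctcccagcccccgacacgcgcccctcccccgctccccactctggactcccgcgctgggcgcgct
DPYSL4: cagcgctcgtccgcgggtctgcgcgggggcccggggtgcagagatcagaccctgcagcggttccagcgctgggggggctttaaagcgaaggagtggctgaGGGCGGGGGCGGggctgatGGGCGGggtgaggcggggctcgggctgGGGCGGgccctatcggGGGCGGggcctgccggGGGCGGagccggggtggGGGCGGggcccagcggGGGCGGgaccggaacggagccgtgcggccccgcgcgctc
DPYSL3: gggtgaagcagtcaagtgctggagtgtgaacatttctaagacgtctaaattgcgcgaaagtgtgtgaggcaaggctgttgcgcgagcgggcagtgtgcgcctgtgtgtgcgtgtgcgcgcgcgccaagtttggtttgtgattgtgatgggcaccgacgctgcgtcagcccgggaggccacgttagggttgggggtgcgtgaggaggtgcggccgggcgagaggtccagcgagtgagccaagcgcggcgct
CRMP1: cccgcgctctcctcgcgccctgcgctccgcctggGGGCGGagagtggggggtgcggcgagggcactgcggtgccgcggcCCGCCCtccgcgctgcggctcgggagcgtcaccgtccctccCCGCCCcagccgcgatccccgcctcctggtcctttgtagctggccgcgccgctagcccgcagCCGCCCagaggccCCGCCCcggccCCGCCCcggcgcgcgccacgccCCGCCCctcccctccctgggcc

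DPYSL4 had 8 GC boxes and CRMP1 had 7 in these 250 bases, while DPYSL5 and DPYSL3 had none. Among 34943 RefSeq promoters of this length, 42.5% had at least 1 GC box and 4.12% had 5 or more. All 4 were rich in CpG, with 34 CpG dinucleotides for DPYSL5, 31 for DPYSL4, 25 for DPYSL3 and 37 for CRMP1, against a median of 11 over all promoters. Their G and C content was 78%, 80%, 62.8% and 82.8% in the same order (median 58.0%). In the 4 stretches shown, no match to TATAAA or CACGTG was found on either strand, motifs held by 10.8% and 6.3% of promoters, and CCAAT occurred once, in DPYSL5 (32.0% of promoters). The windows of further RefSeq starts, not shown, held 3 GC boxes for DPYSL3, 1 for DPYSL5 and 2, 5 and 1 for CRMP1, so the counts depend on the start taken, and the last of these CRMP1 windows also held CACGTG. These letters describe the windows and say nothing about which factors bind there.

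DPYSL2 was the dominant family transcript in every library. It encodes CRMP2, which binds tubulin dimers and promotes axon formation. The gene (ENSG00000092964) spans chr8:26371547-26515694 on the plus strand, with 7296 bases of merged exon. Its TMM-scaled CPM was 229, 228 and 188 in the 3 LG libraries, 150.5, 146 and 147 in HG, 303, 342 and 347 in LGV, and 241, 235 and 219 in HGV. The HG libraries were the lowest and the LGV libraries the highest, neither overlapped another group, and LG and HGV overlapped. Per kilobase of merged exon, the level averaged 29.5 CPM per kb in LG, 20.3 in HG, 45.3 in LGV and 31.7 in HGV.

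CRMP1, which takes part in semaphorin signalling, was a low transcript with wide replicate spread. Its CPM was 0.561, 0.424 and 1.58 in LG, 2.41, 1.585 and 1.06 in HG, 0.870, 0.455 and 0.614 in LGV, and 2.15, 0.999 and 1.47 in HGV, from 14 to 76 reads per library. LG replicate 3 stood far above the other LG libraries and overlapped HG and HGV, and every HGV library was above every LGV library.

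DPYSL3, whose product CRMP4 binds actin, was the lowest or next lowest of the listed members per kilobase in each group. Its reads numbered 4, 7 and 2 in LG, 7, 7 and 9 in HG, 33, 15 and 27 in LGV, and 35, 48 and 17 in HGV. In CPM these were 0.150, 0.175 and 0.0511 for LG, 0.222, 0.209 and 0.252 for HG, 0.990, 0.487 and 0.721 for LGV, and 1.07, 1.14 and 0.500 for HGV. Each treated library was above each untreated library, while LGV and HGV overlapped.

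DPYSL4 encodes CRMP3, whose role is less well described. Its CPM was 1.35, 1.92 and 2.425 in LG, 1.14, 1.88 and 2.04 in HG, 8.49, 8.87 and 8.51 in LGV, and 12.2, 13.7 and 15.9 in HGV. LG and HG overlapped, LGV stood above both, and HGV stood above LGV without overlap.

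DPYSL5, which encodes CRMP5, a member that counteracts the outgrowth-promoting action of CRMP2 in neurons and is a target of autoantibodies in paraneoplastic disease, had almost no reads without VPA and from 187 to 1006 with it. There were 1, 3 and 0 reads in LG, 4, 8 and 7 in HG, 306, 187 and 266 in LGV, and 766, 1006 and 741 in HGV. The corresponding CPM was 0.0374, 0.0749 and 0 in LG, 0.127, 0.239 and 0.196 in HG, 9.18, 6.07 and 7.10 in LGV, and 23.5, 23.9 and 21.8 in HGV. No 2 groups overlapped, but all LG libraries were at or under the floor of 3 reads.

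**Figure D1:**
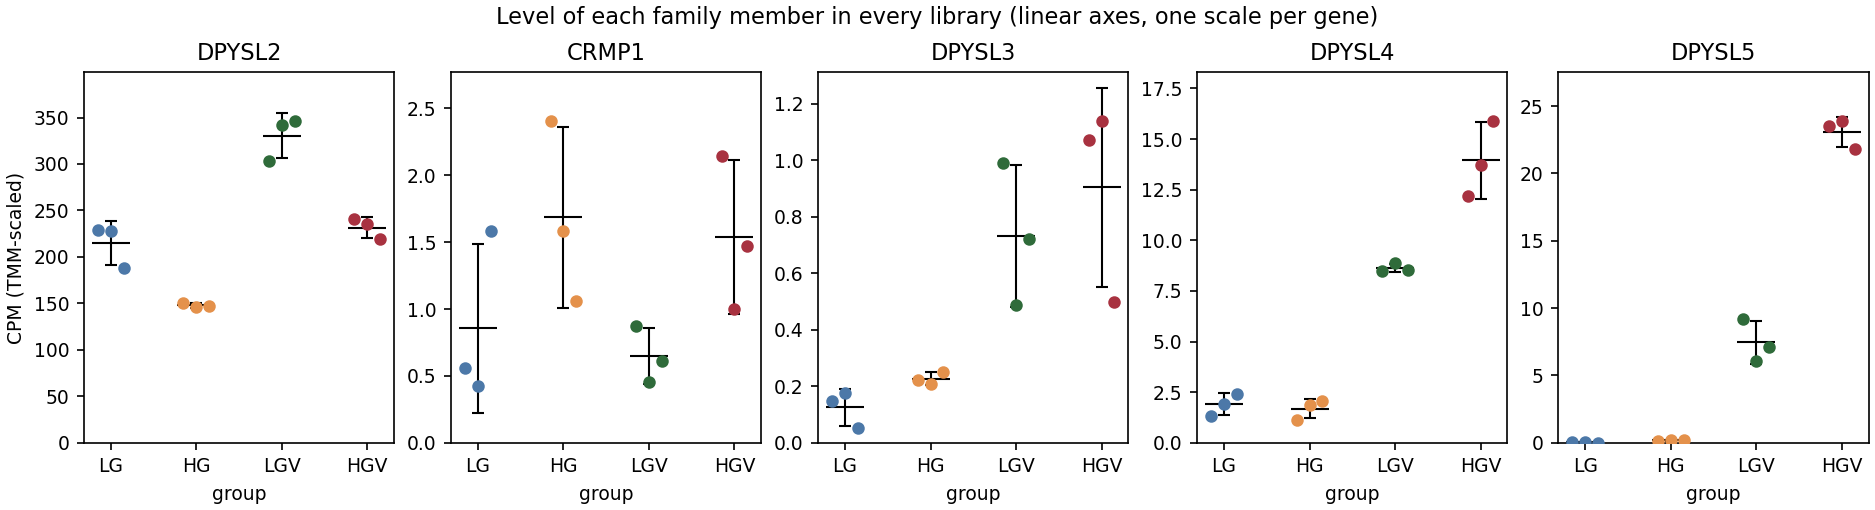
Level of each listed member in CPM (linear axes, a scale of its own for each gene) in the 12 libraries, coloured by group, with the mean and SD of 3 libraries as bars. DPYSL5 lies near 0 in LG and HG and between 21.8 and 23.9 CPM in HGV, DPYSL4 follows the same order of LGV and HGV, and DPYSL2 is lowest in HG and highest in LGV.

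Ordered by level per kilobase, the untreated groups ran DPYSL2, DPYSL4, CRMP1, DPYSL3 and DPYSL5. In LG the means were 29.5, 0.61, 0.146, 0.0174 and 0.00531 CPM per kb, and in HG they were 20.3, 0.543, 0.287, 0.0317 and 0.0266. DPYSL3 and DPYSL5 overlapped in both untreated groups, as did DPYSL4 and CRMP1 in HG. With VPA the order was DPYSL2, DPYSL4, DPYSL5, CRMP1 and DPYSL3, with 45.3, 2.77, 1.06, 0.11 and 0.102 CPM per kb in LGV and 31.7, 4.48, 3.27, 0.262 and 0.126 in HGV. Here CRMP1 and DPYSL3 overlapped in LGV, and the other neighbours did not. DPYSL5 had thus moved from the last place to the third.

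The composition of the family total is given as shares. DPYSL2 made up a mean of 97.4% of the summed CPM per kb in LG, 95.8% in HG, 91.8% in LGV and 79.6% in HGV (range 77.9% to 81.0% in HGV). DPYSL4 made up 2.06%, 2.58%, 5.63% and 11.3% in the same order of groups, as mean values. DPYSL5 accounted for 0.0166%, 0.126%, 2.17% and 8.20%. Leaving DPYSL2 aside, DPYSL5 took 0.809% of the remaining 4 genes in LG, 2.96% in HG, 26% in LGV and 40.3% in HGV, and the part of CRMP1 went from 17.6% and 32.9% to 2.70% and 3.25%. These shares are descriptions and were not tested.

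**Figure D2:**
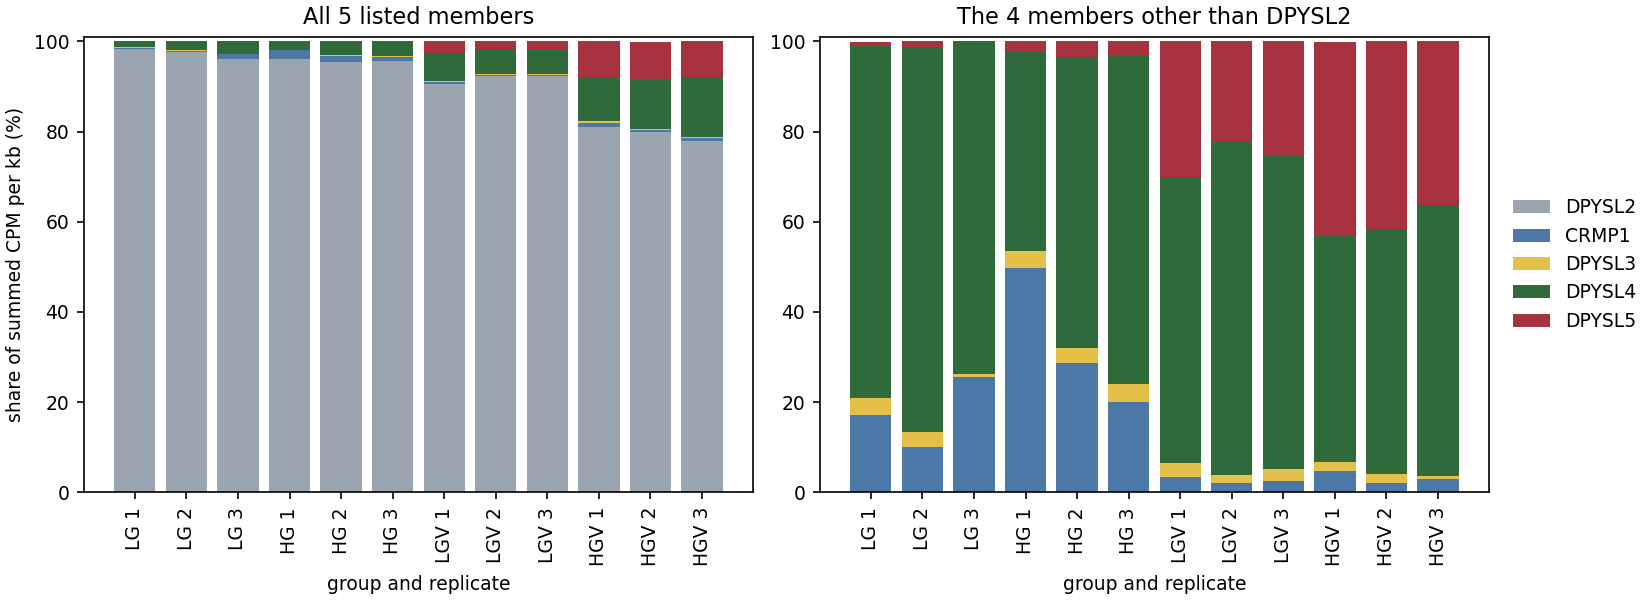
Share of the summed CPM per kb (%) that each member took in each of the 12 libraries, for all 5 listed members (left) and without DPYSL2 (right). DPYSL2 fills at least 77.9% of every library on the left, and on the right DPYSL5 takes a visible part with VPA, from 22.3% to 42.9%.

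The response to VPA was tested in normal glucose, as LGV against LG, whose libraries took no part in the contrast in view when the family was proposed. The members were nonetheless chosen with earlier results of these data known, so this test is not free of that choice. DPYSL5, DPYSL3, DPYSL4 and DPYSL2 were higher with VPA and CRMP1 was not called. That is 4 of 5 members called, all higher, where 41.6% of the 15944 genes tested were called and 21.7% were called higher. Because DPYSL3 and DPYSL5 reached the table through their treated libraries, this count is no support for a family response. In bulk RNA, a change in the number of cells that express a gene and a change in RNA per cell cannot be told apart.

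DPYSL5 and DPYSL3 passed the filter only through LGV, where they had to be higher. Their fitted values are therefore descriptions, although both are among the 4 called. DPYSL5 had a fitted log2 fold change of 7.51 (SE 0.44, 95% interval 6.56 to 8.45), the 13th highest value of 15944 genes. Its LG level rests on 4 reads in all, against 759 in LGV, which gave a ratio of 198 after scaling (exact 95% counting interval 77 to 728). The fitted value was 8.62 without LG replicate 2 and 6.91 without LG replicate 3. DPYSL3 changed by 2.55 (SE 0.49, interval 1.51 to 3.6), from 13 reads in LG to 75 in LGV. DPYSL4 went from 1.9 ± 0.54 to 8.62 ± 0.212 CPM (SD, n = 3), and the fitted difference was 2.17 (SE 0.23, edgeR FDR = 3.44e-06). DPYSL2 rose by 0.63 (SE 0.12, FDR = 0.00087), from 215 ± 23.5 to 330 ± 24.1 CPM (SD, n = 3). CRMP1 had a value of -0.41 (SE 0.46, interval -1.4 to 0.58, FDR = 0.51), which turned to 0.44 without LG replicate 3 (FDR = 0.455).

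In high glucose, where the family was proposed, HGV and HG are given as values only. The fitted log2 differences were 6.91 for DPYSL5 (SE 0.21), 3.03 for DPYSL4 (SE 0.21), 1.98 for DPYSL3 (SE 0.40), 0.65 for DPYSL2 (SE 0.09) and -0.14 for CRMP1 (SE 0.34). DPYSL5 had 19 reads in HG and 2513 in HGV over 3 libraries each. Its difference was the 9th highest of 16188 genes fitted, which the choice of the family already implied.

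Whether the VPA response depended on glucose was examined with an interaction term, in which all 12 libraries entered, those of HG and HGV included. None of the 5 members was called (edgeR), and DESeq2 also called none. In simulated counts this term recovered 42.9% of 2-fold changes, so a member not called is not shown to be unchanged. The changes were put into genes drawn at random, so this share does not give the recovery for members with few untreated reads. Over all genes, 0.0427% were called, or 7 of 16389, and 1852 had an unadjusted p under 0.05. Among the members this held for DPYSL4 only, with a log2 difference of 0.87 in favour of high glucose (SE 0.31, interval 0.23 to 1.52, FDR = 0.267). For DPYSL5 the value was -0.59 (interval -1.95 to 0.77, FDR = 0.794) and for DPYSL3 -0.57 (interval -1.97 to 0.84, FDR = 0.813). These intervals leave room for differences in either direction. Both genes entered this fit through their treated libraries, and DPYSL5 had 4 reads in all in LG, so their values are descriptions. DPYSL2 was at 0.03 (interval -0.3 to 0.36, FDR = 0.973) and CRMP1 at 0.29 (interval -0.98 to 1.55, FDR = 0.911).

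**Figure D3:**
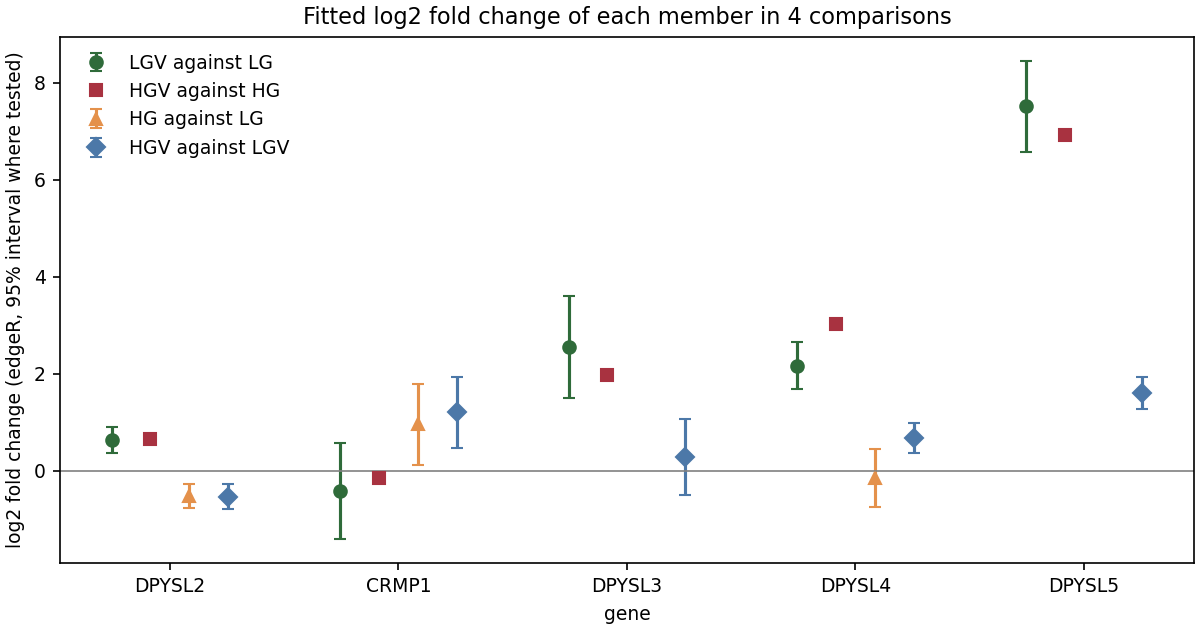
Fitted log2 fold change (edgeR, vertical axis) of each listed member in 4 comparisons, with 95% intervals for the tested comparisons and points alone for HGV against HG. DPYSL5 reads 7.51 in LGV against LG and 6.91 in HGV against HG, while the 2 glucose comparisons put DPYSL2 at -0.52 and -0.53.

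Glucose alone was tested as HG against LG. DPYSL2 was lower in HG and was the only member called, 1 of 3 tested, where 24.7% of 15452 genes were called and 12.7% were called lower. It fell by 0.52 on the log2 scale (SE 0.12, 95% interval -0.77 to -0.27, edgeR FDR = 0.00441), from 215 ± 23.5 to 148 ± 2.43 CPM (SD, n = 3). CRMP1 was at 0.96 (SE 0.40, interval 0.12 to 1.8) with an FDR of 0.0851, and without LG replicate 3 it was at 1.81 with an FDR of 0.00106. DPYSL4 was at -0.15 (interval -0.75 to 0.45, FDR = 0.728), and this value turned to 0.06 without LG replicate 3 and to 0.07 without HG replicate 1.

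DPYSL3 and DPYSL5 averaged under 10 reads over these 6 libraries and were not tested. DPYSL5 had 19 reads in HG and 4 in LG, a ratio of 5 after scaling (exact 95% counting interval 1.66 to 20.2), and each HG library was above each LG library. Fitted without the filter on low counts, its log2 fold change was 2.25 (SE 0.78, edgeR FDR = 0.0449). DPYSL3 had 23 reads against 13, a ratio of 1.86 (0.905 to 4), which is within counting error of no change.

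Among the VPA-treated cells, high glucose went with more DPYSL5, DPYSL4 and CRMP1 and with less DPYSL2. In HGV against LGV, 4 of 5 members were called, 3 higher and 1 lower, where 40.7% of 16208 genes were called, 21.2% higher and 19.5% lower. The HGV libraries are also those of the contrast in view when the family was proposed. DPYSL5 was higher by 1.61 on the log2 scale (SE 0.16, interval 1.28 to 1.94, edgeR FDR = 9.79e-07), from 7.45 ± 1.58 to 23.1 ± 1.13 CPM (SD, n = 3), and ranked 304th of 16208 genes. DPYSL4 was higher by 0.68 (SE 0.15, FDR = 0.00177), from 8.62 ± 0.212 to 13.9 ± 1.88 CPM. DPYSL2 fell by 0.53 on this scale (SE 0.12, FDR = 0.00224), from 330 ± 24.1 to 232 ± 11.3 CPM.

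CRMP1 was higher by 1.21 in HGV than in LGV (SE 0.35, interval 0.48 to 1.94, edgeR FDR = 0.00975), and was not called without HGV replicate 1 (0.90, FDR = 0.0769). DPYSL3 had a value of 0.29 (SE 0.37, interval -0.49 to 1.07, FDR = 0.562). HG against LG and HGV against LGV share no library, and DPYSL2 was lower at high glucose in both, by 0.52 and 0.53.

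Counts of CRMP1 may have gained or lost reads through EVC, a gene of the primary cilium that shares exon bases with CRMP1 on the opposite strand. The paper names a directional library kit. The strand setting of the counting, and how it treated reads on exons of both genes, were not given. EVC was at 10.5, 6.24 and 12.9 CPM in LG, 14.6, 16.1 and 14.0 in HG, 6.60, 4.06 and 4.67 in LGV, and 10.3, 11.1 and 11.9 in HGV, well above CRMP1 in every library. The fitted log2 fold changes of EVC had the same sign as those of CRMP1. They were 0.61 in HG against LG (edgeR FDR = 0.038), -0.94 in LGV against LG (FDR = 0.00931) and 1.1 in HGV against LGV (FDR = 0.000184). Of these comparisons, CRMP1 itself was called only in HGV against LGV, and its sign in LGV against LG turned without LG replicate 3. The order of the 3 replicates was the same for both genes in LG and in LGV and differed in HG and in HGV. The part of EVC in the CRMP1 counts was not tested. PNMA2, beside DPYSL2, averaged 0.133, 0.164, 1.4 and 2.93 CPM in LG, HG, LGV and HGV, against 148 to 330 CPM for DPYSL2.

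For each member, the 3 genes with the most similar profile were sought by the root mean square difference of log2 CPM over the 12 libraries, each gene centred on its own mean, among 16372 genes. DPYSL2 was followed most closely by TES (0.095), IFFO2 (0.099) and RAB11FIP5 (0.106), with TES at 65.9, 45.7, 92.8 and 67.9 CPM in LG, HG, LGV and HGV. The genes close to DPYSL4 included DISP2 (0.239) and FSCN1 (0.283), which encodes an actin-bundling protein and went from 12.9 CPM in LG to 57.1 in LGV and 90.3 in HGV.

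DPYSL5 was nearest to BAI2 (0.46), an adhesion G protein-coupled receptor, then PHOSPHO1 (0.567) and TMEM63C (0.677). These also lay close to 0 without VPA, and BAI2 averaged 0.0542 CPM in LG, 0.121 in HG, 6.18 in LGV and 13.8 in HGV. DPYSL3 was nearest to CABYR (0.305), APBB1 (0.356) and TRANK1 (0.356), and CRMP1 to RP11-262H14.1 (0.3), TIGD1 (0.304) and RP11-485G4.2 (0.309). The SD of a member's own log2 CPM over the libraries was 0.42 for DPYSL2, 0.772 for CRMP1, 1.068 for DPYSL3, 1.354 for DPYSL4 and 3.342 for DPYSL5, against which these distances can be read. A small distance is a description of these libraries, which all genes share.

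The genes that surround the family in its pathway were read from 6 lists of 58 genes, of which 52 were listed in the table. Class 3 semaphorins are the secreted ligands. Of 7, 4 were listed (SEMA3A, SEMA3B, SEMA3F and SEMA3G), and none passed the test in HG against LG or in LGV against LG, where the median log2 fold change was 0.22 against -0.01 over all genes tested. Over all genes, 24.7% and 41.6% were called in these comparisons, in that order. In HGV against LGV, where 40.7% of all genes were called, only SEMA3B was, at 0.38 (edgeR FDR = 0.0231), from 79.4 to 105 CPM on average.

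All 8 receptor genes were listed. In LGV against LG 4 of 7 tested rose and 1 fell, with a median of 0.30, where 41.6% of all genes were called and 21.7% were called higher. PLXNA2, a plexin, rose by 0.91 (SE 0.14, FDR = 0.000125), from 13 to 24.1 CPM. The coreceptor NRP2 rose by 0.71 (FDR = 0.0172) and the adhesion molecule L1CAM by 0.70 (FDR = 0.00957). PLXND1, at 144 CPM in LG, rose by 0.30 (FDR = 0.0415), and PLXNA1, at 119 CPM, fell by 0.41 (FDR = 0.0109). In HG against LG 2 of 7 fell, PLXNA3 by 0.55 (FDR = 0.0131) and PLXND1 by 0.39 (FDR = 0.0306), and none rose, where 24.7% of all genes were called and 12.7% lower. In HGV against LGV 2 of 8 rose and 2 fell, where 40.7% of all genes were called, 21.2% higher and 19.5% lower. PLXNA4 is among those that rose, with 12, 4 and 10 reads in LGV and 19, 29 and 21 in HGV. It averaged under 10 reads in LGV and passed the filter only through HGV, where it was higher, so its rise is a description.

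Among the 15 kinase genes, of which 13 were tested, 5 rose and 1 fell in LGV against LG, with a median of 0.22, where 41.6% of all genes were called. CDK5R2, which encodes p39, an activator of CDK5 known from neurons, had 1, 1 and 3 reads in LG, all at or under the floor, and 64, 28 and 28 in LGV. It passed the filter only through LGV, where it had to be higher, so its fitted log2 value of 4.57 (SE 0.59) is a description, although it is among the 5 called. FYN, a tyrosine kinase of the Src family, had 12.8, 13.4 and 11.9 CPM in LG and 44.2, 50.5 and 49.1 CPM in LGV (1.93, SE 0.13, FDR = 5.24e-08). DYRK2, which primes family members for GSK3, rose by 1.05 (FDR = 3.05e-05), CDK5 itself by 0.97 (FDR = 0.000139) and CAMK2G by 0.39 (FDR = 0.0234). CDK5R1, the gene of the other activator p35, also passed the test, with a fall. In HG against LG, where 24.7% of all genes were called, only DYRK1A was, at -0.39 (edgeR FDR = 0.0356). In HGV against LGV 3 of 15 rose and 4 fell, where 40.7% of all genes were called, 21.2% higher and 19.5% lower. CAMK2B is among those that rose, with 16, 7 and 5 reads in LGV and 21, 38 and 20 in HGV. It averaged under 10 reads in LGV and passed the filter only through HGV, where it was higher, so its rise is a description.

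Partners and effectors comprise tubulins, kinesin-1 subunits and actin regulators. Of 17 listed and tested, 8 rose and 1 fell in LGV against LG, and the median was 0.14, where 41.6% of all genes were called and 21.7% were called higher. KIF5C, a kinesin-1 heavy chain best known from neurons, had 0.823, 0.524 and 0.664 CPM in LG and 26.2, 22.3 and 25 CPM in LGV, a log2 fold change of 5.22 (SE 0.21, FDR = 1.71e-09). The tubulin gene TUBB2B had 10.7, 13.5 and 9.22 CPM in LG and 49.2, 66.3 and 53.5 CPM in LGV (2.35, SE 0.16, FDR = 9.23e-08). MICAL2, an actin-oxidising enzyme, rose by 1.48 (FDR = 0.000198) and TUBA1A by 1.07 (FDR = 0.000652). CYFIP1, a subunit of the WAVE complex, fell by 0.69 (FDR = 0.000334), from 107 to 65.6 CPM. Tubulin genes have near-identical paralogs, and the counting used a mapping quality threshold that drops reads placed at several sites, so TUBB2B and TUBA1A were counted by the reads that tell them from their paralogs. CHN1, KIF5A, MICAL1 and WASF1 were also called higher. In HG against LG 4 of 17 fell (KIF5A, MICAL2, KIF5B and WASF1) and none rose, with KIF5B at 205 CPM in LG and 152 in HG, where 24.7% of all genes were called and 12.7% lower. In HGV against LGV 5 rose and 4 fell, where 40.7% of all genes were called.

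Of the 7 genes beside DPYS in pyrimidine breakdown, 5 were listed and tested. In LGV against LG cytidine deaminase (CDA) rose by 1.78 (SE 0.18, FDR = 2.47e-06), and UPB1, the enzyme of the step after dihydropyrimidinase, fell by 1.05 (FDR = 0.0277) at 0.662 CPM in LG. DPYD, the enzyme of the step before it, averaged 11.3 CPM in LG and 14.2 in LGV and was not called (FDR = 0.0782). In HG against LG 3 of 5 were called, where 24.7% of all genes were. CDA rose by 0.75 (FDR = 0.00862), TYMP fell by 0.76 (FDR = 0.00901) and UPP1 fell by 0.72 (FDR = 0.00598). In HGV against LGV 1 of 5 rose and 1 fell, where 40.7% of all genes were called.

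Pyrimidine synthesis was represented by CAD, DHODH and UMPS. CAD holds a dihydroorotase domain related to DPYS. All 3 fell in LGV against LG, CAD by 1.14 (SE 0.11, edgeR FDR = 2.44e-06), DHODH by 0.87 (FDR = 0.00648) and UMPS by 0.41 (FDR = 0.0184). In that comparison 41.6% of all genes were called, and 3177 of 15944 were called lower. In HG against LG CAD rose by 0.41 (edgeR FDR = 0.0191) and DHODH by 0.72 (FDR = 0.0108), and UMPS was at 0.19 (FDR = 0.301). There 24.7% of all genes were called, and 1854 of 15452 were called higher. All 3 were higher in HGV than in LGV, where 40.7% of all genes were called and 21.2% were called higher. No gene of the 6 lists was called for the interaction, where 0.0427% of all genes were called.

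**Figure D4:**
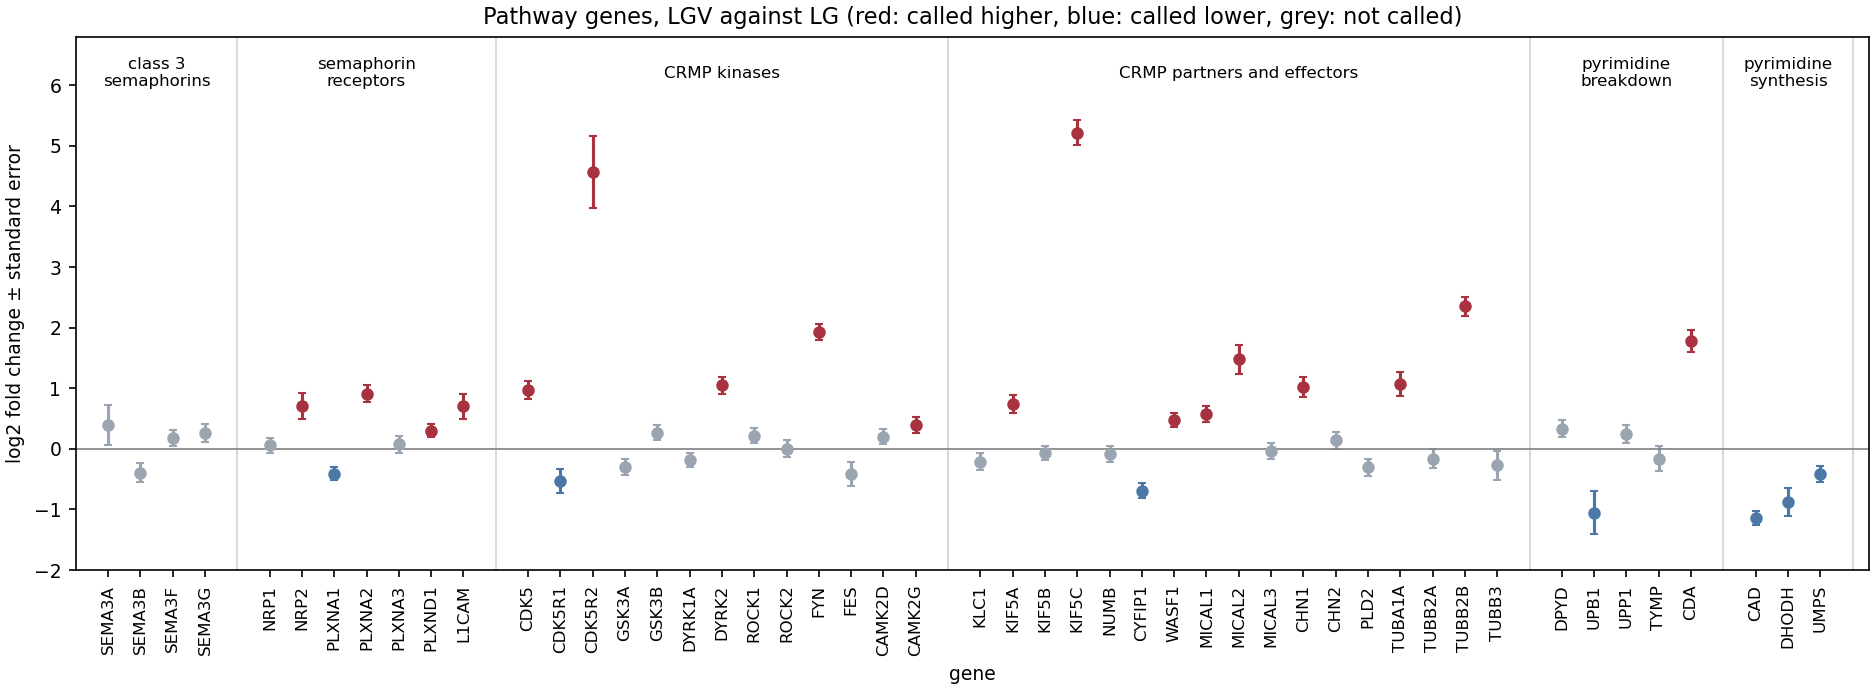
Log2 fold change in LGV against LG (edgeR, vertical axis, with SE) of each tested gene of the 6 pathway lists, red where called higher, blue where called lower and grey where not called. KIF5C (5.22) and CDK5R2 (4.57, whose LG level lies at or under the floor) stand above the rest, and CAD, DHODH and UMPS all lie under 0.

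The labelled cell type was checked against marker genes. All 8 hepatocyte markers were listed, and their summed level was 51500 to 58300 CPM in LG, 52600 to 60500 in HG, 39800 to 40700 in LGV and 46700 to 61300 in HGV, with ALB alone at 19400 to 26900 CPM on average. Of 9 neuronal markers, 2 were listed (SYP and RBFOX3). Their sum was 5.64 to 6.84 CPM in LG, 6.47 to 7.81 in HG, 23.0 to 26.8 in LGV and 34.1 to 47.2 in HGV, nearly all of it SYP, which was higher with VPA and higher again in HGV, as DPYSL4 and DPYSL5 were. RBFOX3, at 0.583 CPM in LGV and 0.248 in HGV, was lower in HGV by 1.22 on the log2 scale. It had 22, 22 and 14 reads in LGV and 5, 10 and 12 in HGV. Its HGV average was under the filter of 10 reads, and it passed through LGV, where it was higher, so this value is a description. DCX, STMN2, SNAP25, ELAVL3, ELAVL4, MAP2 and GAP43 were not listed. The listed fibroblast marker COL1A1 (1 of 5) lay between 0.125 and 0.374 in LG and between 0.747 and 1.44 in LGV. Endothelial markers (2 of 3 listed) summed to 2.3 to 2.99 CPM in LG and 2.24 to 3.09 in LGV. The part of other cell types in the levels of the family was not tested.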

How the data were processed

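HepG2 libraries of the LG, HG, LGV and HGV groups (3 each, grouped by the labels) were analysed. Single-end reads had been trimmed, aligned (STAR, GRCh37) and assigned to genes (featureCounts) by the authors. Their deposited values are raw read counts, not normalized, for 16389 genes averaging at least 10 reads per sample, as checked on the values. Reads under a mapping quality threshold were not counted, which leaves out multi-mapped STAR alignments. The strand setting is not given in the sources used here. The members and gene lists were chosen with earlier results of these data known.

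Tests used edgeR 4.0.16 and R 4.3.3 (TMM, quasi-likelihood F test) in the libraries of each comparison, for genes with a mean of at least 10 reads, and called at a Benjamini-Hochberg FDR of 0.05 or less over all genes tested. CPM values were scaled by TMM factors (0.879 to 1.095), and levels per kilobase used merged GENCODE exons. Similarity used log2 CPM with a prior count of 2. Pooled read ratios carry exact 95% intervals. The genes named are all members, the called pathway genes (values for the 4 of largest change and the 2 of highest level in a list), the 3 most similar genes per member, and genes that overlap members; SEMA3B and the genes listed without values were added after their values were seen. Not every gene this selects is reported here. Promoter sequences came from the RefSeq table and were placed by exact match to GRCh37. The fits were tested on simulated counts, with 2-fold changes put into genes drawn at random. Before the change, each gene had the same mean level in all groups. Of these changes, 69.3% were recovered in LGV against LG, 78.2% in HG against LG, 83.3% in HGV against LGV and 42.9% for the interaction. Alternatives were DESeq2 size factors, library size only, DESeq2's own Wald test (version 1.42.0), the filter removed or set to 1 CPM in 3 libraries, a replicate block, a fit of all 12 libraries, and leaving out each library. Plots used matplotlib 3.10.9 in Python 3.11.15.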

Additional observations from a re-analysis of the deposited data

How the results depend on the processing

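Of 321 member fold changes recomputed under alternatives, 298 were labelled as the same. In the tested comparisons this meant the same direction and the same side of the threshold. HGV against HG has no threshold, and there it meant the same direction and a move smaller than the pooled SD within groups. Every gene of the table averaged at least 10 reads, so removing the filter could not change the interaction, and its agreement there was fixed in advance. For HG against LG, 1 member was called and 2 were called with no filter on low counts (DPYSL5 added), 2 with the replicate block, and 1 to 2 when each library was left out. The labels do not say whether same-numbered libraries shared a culture or day. Their deviations from the group means correlated by -0.078 to 0.086 on average, and in no comparison did all 3 pairs exceed 0.1. In HGV against HG the average was 0.086, against -0.046 for libraries of different numbers. In HG against LG it was -0.078, against 0.04. With 3 pairs per comparison, a shared batch cannot be told. The replicate block, which put CRMP1 at 1.06 (edgeR FDR = 0.015) in HG against LG, changed no other call of a member. Pathway genes called in HG against LG numbered 12, and 6 with library size only, and 3 to 18 when a library was left out (5 without HG replicate 3, 7 without HG replicate 2, 3 without LG replicate 1). In HGV against LGV they numbered 26, and 17 to 27 when a library was left out, with 17 without LGV replicate 3. The 26 include PLXNA4 and CAMK2B, which passed the filter only through HGV. Signs turned for values that were not called. Leaving out a library gave -0.32 to 0.07 for DPYSL4 in HG against LG, -0.77 to 0.44 for CRMP1 in LGV against LG, and -0.45 to 0.18 for CRMP1 in HGV against HG. For the interaction it gave -0.05 to 0.12 for DPYSL2, -0.56 to 0.61 for CRMP1 and -1.75 to 0.03 for DPYSL5. DPYSL2 was at 0.00 there with DESeq2 size factors, the DESeq2 Wald test or the 1 CPM filter, and at -0.02 with library size only. Genes called for the interaction numbered 7 of all tested, 162 with the DESeq2 Wald test, 13 with the replicate block, 1 with library size only, and 1 to 217 when a library was left out (217 without LG replicate 2, 67 without LG replicate 3). Scaling by library size only moved the median of all genes to 0.11 in HG against LG, 0.16 in LGV against LG and 0.15 in HGV against HG. With it, 4500 of 6456 calls in LGV against LG were higher, against 3461 of 6638, and 2172 of 3469 in HG against LG, against 1854 of 3813. Genes called in HG against LG fell to 1933 without LG replicate 1 and to 2076 without HG replicate 3. The 1 CPM filter removed DPYSL3 from LGV against LG and HGV against HG, and CRMP1 from LGV against LG. Few reads limit DPYSL3, CRMP1 and untreated DPYSL5. In these alternatives the cause was not tested.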
